A study of Mus musculus with 4 samples.

Results

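Translation initiation factors are the proteins that place a ribosome on the start codon of an mRNA. The genes described here were the IDs of the deposited gene table that begin with Eif and a digit between 1 and 6, without the eIF2 kinases (Eif2ak1 to Eif2ak4) and without Eif2s1, Eif2s3x and Eif2s3y. The pattern matched 54 IDs, 7 were excluded, and 47 of the 10716 genes in the table remained. By complex they were 1 subunit of eIF2 (Eif2s2), Eif2a, 5 subunits of eIF2B, 7 genes of the eIF1, eIF1A and eIF5 group, 13 of eIF3, 14 of the eIF4 group and 3 of the eIF5A and eIF6 group. The name pattern also took 3 argonautes under their older symbols Eif2c1, Eif2c2 and Eif2c3, which act in small-RNA silencing and not in initiation. Every one of the 47 genes exceeded 1 CPM (counts per 1000000 counts of the library) in all 4 libraries, so none entered the table through 1 group alone.

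In initiation, eIF2 bound to GTP carries the initiator tRNA to the small ribosomal subunit, and eIF2B, its exchange factor, recharges eIF2 with GTP after each round. The eIF3 complex, eIF1 and eIF1A hold the small subunit open for scanning, eIF5 triggers GTP hydrolysis on eIF2, and eIF5B joins the large subunit. The eIF4 factors bring the mRNA: eIF4E binds the cap, eIF4G is the scaffold, eIF4A is the helicase with eIF4B and eIF4H as its partners, and the eIF4E-binding proteins block eIF4E until the kinase mTORC1 phosphorylates them. Erythroid precursors make globin at a high rate and tune initiation to their haem supply through the eIF2 kinase HRI.

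RNA came from fetal livers of C57BL/6 embryos at embryonic day 14.5, out of which the erythroid cells had been sorted by flow cytometry for YFP from the R26eYFP reporter. The tested libraries were 2 labelled Adar knockout (KO, replicates 1 and 2), and the controls were 2 labelled wild type (WT, replicates 3 and 8). The knockout was made with Epor-Cre, a recombinase expressed from the erythropoietin receptor gene and so active in erythroid cells, and its target Adar encodes ADAR1, an enzyme that edits adenosine to inosine in RNA. The genotype given for these embryos, Epor-Adar / +, leaves unsaid whether 1 or both alleles were deleted. The genotype field of the WT animals reads wild type and names no Cre or reporter allele, although sorting for YFP is described for all 4 libraries. The comparison asks how transcript levels differ between erythroid cells labelled Adar knockout and those labelled wild type.

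Total counts were 32452155 and 38124687 in KO-labelled replicates 1 and 2, and 28356401 and 44016809 in WT replicates 3 and 8. The Adar gene had 67.1 and 102 CPM in the KO-labelled libraries against 50.9 and 46.9 CPM in the WT libraries (adjusted p = 0.377), and a count over the whole gene does not separate deleted from retained exons. The labels were therefore not checked by this gene, and the first group is called KO-labelled throughout. The sex labels are female for KO-labelled replicate 1 and WT replicate 3 and male for the other two, whereas 3 Y-linked genes summed to 276 and 0.0778 CPM in KO-labelled replicates 1 and 2 and to 131 and 146 CPM in WT replicates 3 and 8. In 3 of the 4 libraries these sums contradict the sex given. Of 13 erythroid markers 11 were in the table, none was below 131 CPM in any library, and their sum was 71860 and 72930 CPM in the KO-labelled libraries against 103100 and 68320 CPM in the WT libraries. Markers of other cells differed between libraries: 7 neutrophil genes summed to 305 CPM in KO-labelled replicate 1 and 37.3 CPM in replicate 2, against 41.1 and 45.3 CPM in WT. Sums of 5 progenitor markers were 250 and 195 CPM in the KO-labelled libraries against 154 and 174 CPM in WT, and sums of 7 megakaryocyte markers were 181 and 111 CPM against 64.4 and 93.8 CPM. For 10 macrophage markers the sums were 51.7 and 28.2 CPM in the KO-labelled libraries against 62.1 and 36.7 CPM in WT, and for 9 hepatoblast markers they were 62.0 and 73.1 CPM against 131 and 53.3 CPM. Single macrophage markers were lower in both KO-labelled libraries for 6 of the 10 and higher for 0, and single megakaryocyte markers were higher in both for 4 of the 7 and lower for 0, where 26.7% of all genes were lower and 27.4% higher in both. No marker of these cell types was at 0 in any library. Their part in the values that follow was not tested, and in bulk RNA a change in cell makeup and a change per cell cannot be told apart.

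The transcript of an eIF4E inhibitor, Eif4ebp1, was the member with the largest difference, about 3.53-fold higher on average in the KO-labelled libraries. Several eIF3 subunits, led by Eif3c and Eif3f, and the scanning factor Eif1 were also higher in both KO-labelled libraries. Eif2b1, Eif3b, the helicase Eif4a1 and the eIF1A genes were lower in both. Such orders were common in the table, with 27.4% of all genes higher and 26.7% lower in both. In the edgeR quasi-likelihood test, adjusted by Benjamini-Hochberg over all 10716 genes with a threshold of 0.05, 0 of the 47 genes passed, against 11 genes in the whole table (0.103%), all higher. At an unadjusted p under 0.05 there were 3 members, Eif4ebp1 and Eif3c higher and Eif2b1 lower, against 1275 genes in all (11.9%). DESeq2 and the likelihood ratio test of edgeR each called 1 member, Eif4ebp1, with 374 genes (3.49%) and 349 genes (3.26%) called in all, and limma-voom called 0 members and 8 genes (0.0747%). The precision was limited by the spread between libraries and not by counting, since member counts ran from 276 for Eif2c3 in WT replicate 3 to 61101 for Eif4g2 in WT replicate 8. The common biological coefficient of variation was 25.6%. With 2 libraries a group, a p above the threshold does not show that a level was the same.

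In 10 members both KO-labelled libraries were above both WT libraries, a smaller share than the 27.4% of all genes with that order. In 14 members both were below, a share slightly above the 26.7% of all genes with that order. In 23 members the groups overlapped. The median log2 fold change (KO-labelled over WT) was -0.072 over the 47 members and -0.0008 over all genes, with 20 members above 0 and 27 below. As many as 23 members had a log2 fold change within 0.2 of 0. By complex the medians were 0.27 for eIF3, -0.0925 for eIF2B, -0.22 for the eIF1, eIF1A and eIF5 group, and -0.072 for the eIF4 group. These medians moved when 1 library was left out: that of eIF3 was 0.062 without KO-labelled replicate 1, and that of the eIF1, eIF1A and eIF5 group was -0.36 without KO-labelled replicate 2. For eIF2B the median was -0.24 without WT replicate 3 and 0.088 without WT replicate 8, a change of sign. For the eIF4 group it was -0.13 without WT replicate 3 and -0.037 without WT replicate 8.

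**Figure D1:**
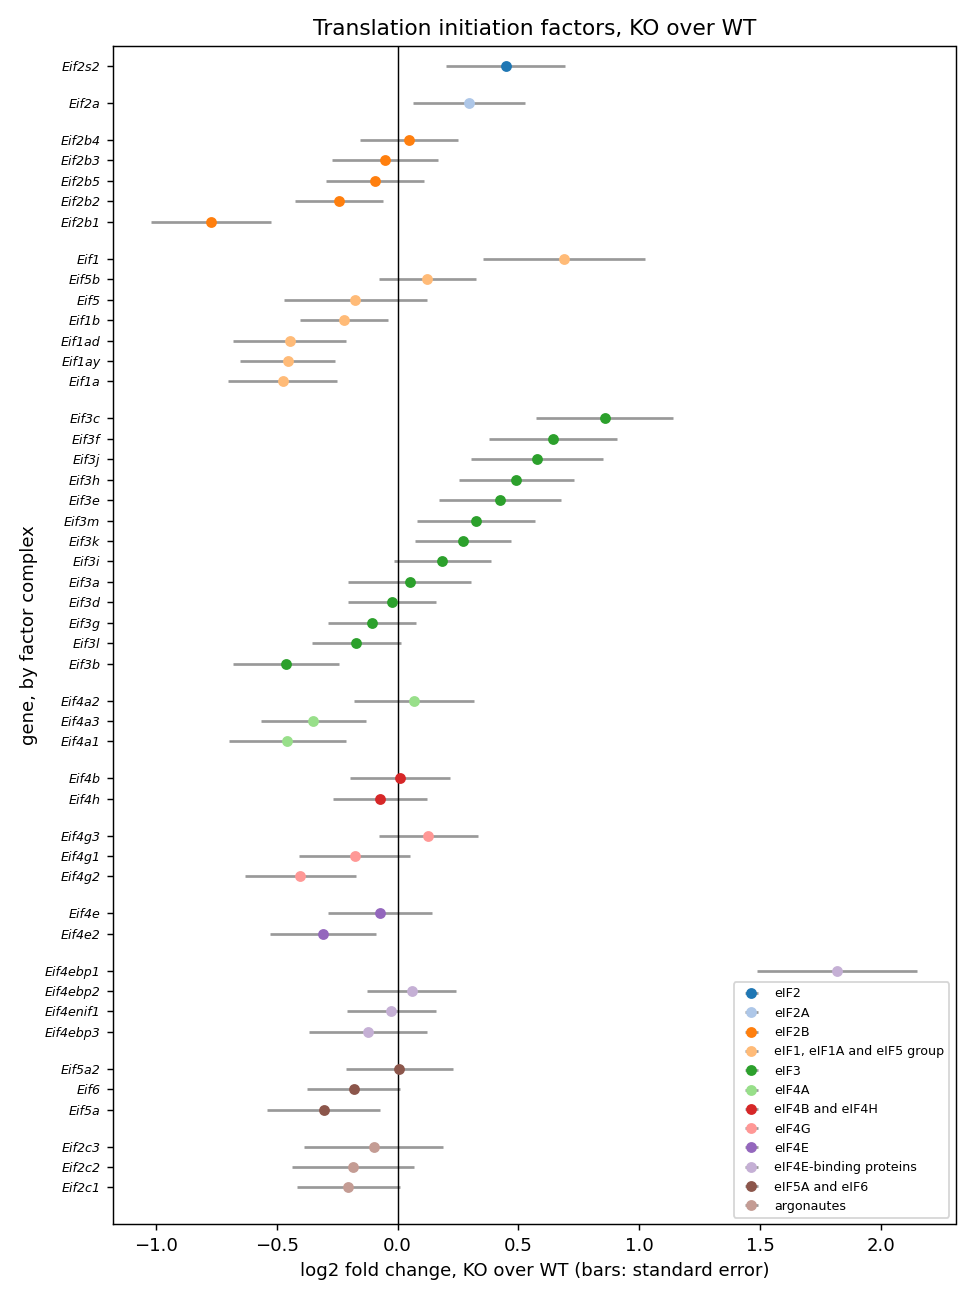
Log2 fold change of each of the 47 genes, KO-labelled over WT (x axis), with genes listed by factor complex (y axis, 1 colour per complex) and bars for the standard error of the fit. Eif4ebp1 at 1.82 stands far to the right of the other 46 genes, which lie between -0.77 (Eif2b1) and 0.86 (Eif3c).

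Eif2s2 encodes the beta subunit of eIF2, which contacts eIF5 and eIF2B (chromosome 2 of NCBIM37, 154697146 to 154718671, minus strand). It had 491 and 346 CPM in KO-labelled replicates 1 and 2, against 295 and 319 CPM in WT replicates 3 and 8. Both KO-labelled libraries were above both WT libraries, with replicate 1 farther out, and the log2 fold change was 0.45 (SE 0.25, adjusted p = 0.447). Without KO-labelled replicate 1 it was 0.17. Eif2a encodes a separate single-chain protein that can deliver initiator tRNA and is not a subunit of eIF2. Its values were 135 and 95.5 CPM in the KO-labelled libraries against 87.4 and 100 CPM in WT, so that the groups overlapped (log2 fold change 0.30, SE 0.23, adjusted p = 0.536). An exon of Serp1 overlaps Eif2a on the opposite strand, and reads of overlapping genes cannot be told apart where the strand of the library is not stated.

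The eIF2B complex has a regulatory core of the subunits encoded by Eif2b1, Eif2b2 and Eif2b4 (alpha, beta and delta) and a catalytic pair encoded by Eif2b3 and Eif2b5 (gamma and epsilon). Eif2b1 (chromosome 5, 125020222 to 125029140, minus strand) was the member with the lowest fold change of all 47. It had 25.5 and 37.7 CPM in the KO-labelled libraries, against 51.7 and 56.2 CPM in the WT libraries. Both KO-labelled libraries were below both WT libraries, and the log2 fold change was -0.77 (SE 0.25, unadjusted p = 0.0211, adjusted p = 0.383). Without KO-labelled replicate 1 it was -0.52 (adjusted p = 0.388), and without KO-labelled replicate 2 it was -1.09 (adjusted p = 0.00322).

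The other regulatory subunits lay closer to WT. Eif2b2 had 37.0 and 38.4 CPM in the KO-labelled libraries and 44.5 and 44.6 CPM in WT, a narrow gap with no overlap (log2 fold change -0.24, SE 0.18, adjusted p = 0.522). Eif2b4 had 69.5 and 54.7 CPM in the KO-labelled libraries and 57.0 and 63.2 CPM in WT, with overlap (0.047, SE 0.20, adjusted p = 0.913), and shares exon sequence with Snx17 on the opposite strand. The catalytic subunits overlapped as well. Eif2b3 had 41.8 and 40.5 CPM in the KO-labelled libraries against 36.6 and 48.7 CPM in WT (-0.051, SE 0.22, adjusted p = 0.911). Eif2b5 had 83.4 and 79.9 CPM in the KO-labelled libraries against 76.3 and 97.7 CPM in WT (-0.0925, SE 0.20, adjusted p = 0.820). Within the complex, Eif2b1 and Eif2b2 were thus lower in both KO-labelled libraries, 2 of 5 genes where 26.7% of all genes had that order, and for Eif2b3 and Eif2b5 the KO-labelled values lay between the WT values.

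In the scanning group, Eif1 and the genes of its partner eIF1A lay on opposite sides of WT. Eif1 encodes the factor that guards start-codon selection, and it had 1094 and 592 CPM in KO-labelled replicates 1 and 2, against 537 and 509 CPM in WT replicates 3 and 8 (log2 fold change 0.69, SE 0.33, adjusted p = 0.433). Replicate 1 alone was far from WT, and without it the log2 fold change was 0.18. The 2 genes of eIF1A, which stabilises the scanning complex, were lower in both KO-labelled libraries. Eif1ay, the symbol the table gives for the gene that RefSeq calls Eif1ax on chromosome X, had 94.2 and 114 CPM in the KO-labelled libraries against 149 and 136 CPM in WT (-0.45, SE 0.20, adjusted p = 0.433). Eif1a had 31.7 and 38.8 CPM in the KO-labelled libraries against 42.9 and 55.0 CPM in WT (-0.47, SE 0.23, adjusted p = 0.433). Reads of these near-identical paralogs may have been divided between them, since the handling of shared reads is not given in the sources used here. The ratio of Eif1 to Eif1ay counts was 11.6 and 5.22 in KO-labelled replicates 1 and 2, against 3.61 and 3.74 in WT replicates 3 and 8. This ratio restates the 2 genes' own values without library scaling: they were chosen because they lay on opposite sides of WT, so that its groups could not overlap. Of the other 4 genes of this group, Eif1ad and Eif1b were lower in both KO-labelled libraries (log2 fold changes -0.45 and -0.22, and -0.20 and -0.17 without KO-labelled replicate 1). Eif5b was slightly higher in both (0.12), and Eif5, the GTPase activator, overlapped between groups (-0.17). Eif5b shares exon sequence with Rev1 on the opposite strand.

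The eIF3 complex is built on an octamer of the subunits a, c, e, f, h, k, l and m, to which b, d, g, i and the loosely held j attach. Of its 13 genes, 6 were higher in both KO-labelled libraries (Eif3c, Eif3e, Eif3f, Eif3h, Eif3j and Eif3k), 2 were lower in both (Eif3b and Eif3l), and 5 overlapped. These counts stand against 27.4% and 26.7% of all genes, and 0 of the 13 passed the test over all genes. Among the 8 octamer genes, 7 had a log2 fold change above 0, 5 were higher in both KO-labelled libraries and 1 was lower, with a median of 0.37. Without KO-labelled replicate 1, 6 of the 8 were above 0 and the median was 0.15. Among the other 5 genes, 2 were above 0, with a median of -0.022 that ran from -0.082 without KO-labelled replicate 1 to 0.025 without KO-labelled replicate 2. The difference between these subgroups was not tested.

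Eif3c encodes an octamer subunit that binds eIF1 and eIF5 (chromosome 7, 133690426 to 133709880, minus strand). It had 768 and 489 CPM in KO-labelled replicates 1 and 2, against 326 and 369 CPM in WT replicates 3 and 8. Both KO-labelled libraries were above both WT libraries by more than the WT libraries differed from each other (log2 fold change 0.86, SE 0.28, unadjusted p = 0.0240, adjusted p = 0.390). Without KO-labelled replicate 1 the log2 fold change was 0.49 (adjusted p = 0.699). Eif3f, an octamer subunit of the MPN fold (chromosome 7, 116077931 to 116086465, plus strand), had 415 and 289 CPM in the KO-labelled libraries, against 197 and 253 CPM in WT. The groups did not overlap (0.64, SE 0.26, adjusted p = 0.423), and without KO-labelled replicate 1 the log2 fold change was 0.36. Eif3j, the peripheral subunit that sits near the decoding site, had 243 and 153 CPM in the KO-labelled libraries against 122 and 144 CPM in WT (0.58, SE 0.27, adjusted p = 0.433). KO-labelled replicate 2 was only just above WT replicate 8, and without KO-labelled replicate 1 the log2 fold change was 0.20. Eif3j, which RefSeq calls Eif3j1, also shares exon sequence with Spg11 on the opposite strand. Any reads it shares with a paralog may be divided or missing from its count. Eif3h, Eif3e and Eif3k, all of the octamer, were higher in both KO-labelled libraries with log2 fold changes of 0.49, 0.42 and 0.27, which were 0.26, 0.15 and 0.14 without KO-labelled replicate 1. Eif3m, Eif3i, Eif3a, Eif3d and Eif3g overlapped, with values from 0.32 (Eif3m) to -0.11 (Eif3g).

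Eif3b, the scaffold that carries the g and i subunits (chromosome 5, 140895259 to 140919314, plus strand), lay on the other side of WT. It had 231 and 296 CPM in the KO-labelled libraries, against 346 and 380 CPM in WT (-0.46, SE 0.22, adjusted p = 0.433, and -0.29 without KO-labelled replicate 1). The remaining lower subunit, Eif3l, had 236 and 229 CPM in the KO-labelled libraries and 257 and 265 CPM in WT (-0.17). The count ratio of Eif3c to Eif3b was 3.32 and 1.65 in KO-labelled replicates 1 and 2, against 0.943 and 0.971 in WT replicates 3 and 8. That of Eif3f to Eif3b was 1.80 and 0.976 in the KO-labelled libraries, against 0.570 and 0.667 in WT. KO-labelled replicate 1 was the higher of its pair in both ratios. As with Eif1 and Eif1ay, the 2 genes of each ratio were chosen for lying on opposite sides of WT, which fixes that the groups do not overlap.

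**Figure D2:**
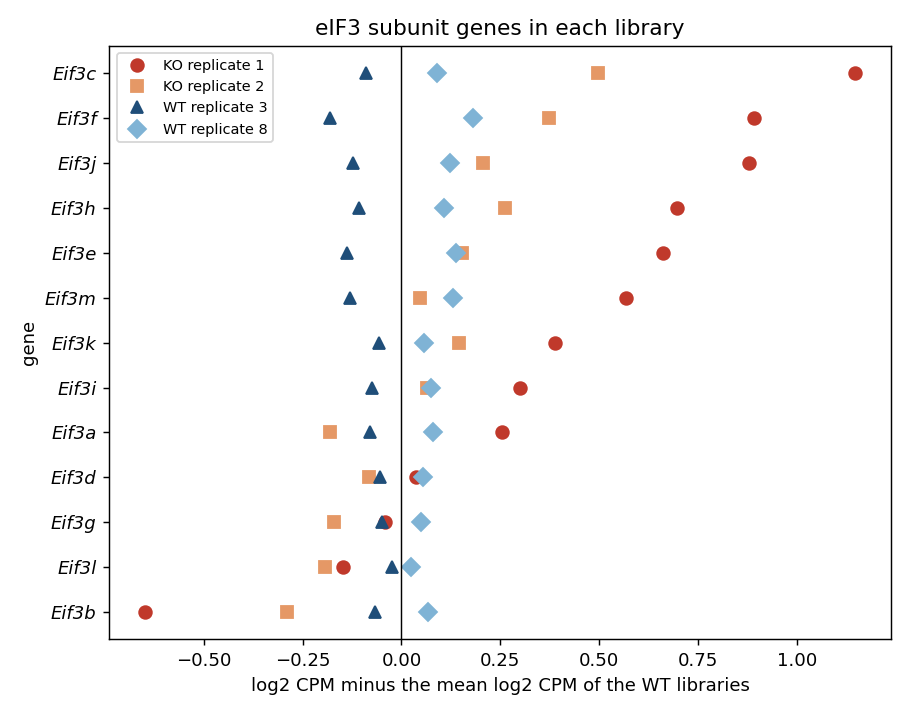
Each of the 13 eIF3 genes (y axis) in each library, as log2 CPM minus the mean log2 CPM of the WT libraries (x axis), with red circles and orange squares for KO-labelled replicates 1 and 2 and dark triangles and light diamonds for WT replicates 3 and 8. KO-labelled replicate 1 is the farthest out at both ends, from Eif3c at the top to Eif3b at the bottom, and KO-labelled replicate 2 lies between it and the WT libraries for both genes.

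Many mRNAs of the translation machinery begin with a run of pyrimidines at the cap, the 5′ terminal oligopyrimidine or TOP element, through which mTORC1 controls their translation. In human cells the mRNAs of the e, f and h subunits of eIF3 are of this class. The start regions of the genes at both ends of the eIF3 range and of Eif2b1 are shown for this feature, from the RefSeq promoter table on GRCm38.p6. Each line runs from 60 bases before the annotated start through 20 bases from it, 5′ to 3′ on the strand of the gene. Capitals mark the longest pyrimidine run that touches the 5 bases on either side of the start. Where runs of equal length tied, as for Eif3c, only the first is marked. Eif3f is at chr7:108934355-108934434 on the plus strand and Eif3c at chr7:126566347-126566426 on the minus strand. Eif3b is at chr5:140419245-140419324 on the plus strand and Eif2b1 at chr5:124579112-124579191 on the minus strand.
Eif3f: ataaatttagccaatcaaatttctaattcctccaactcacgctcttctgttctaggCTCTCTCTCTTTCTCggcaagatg
Eif3c: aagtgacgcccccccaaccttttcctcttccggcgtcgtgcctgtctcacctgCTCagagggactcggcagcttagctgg
Eif3b: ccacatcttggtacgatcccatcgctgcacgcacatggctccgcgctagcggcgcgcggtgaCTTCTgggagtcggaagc
Eif2b1: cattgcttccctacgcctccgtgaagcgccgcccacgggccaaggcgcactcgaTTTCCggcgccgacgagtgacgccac

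Counted with the annotated start as base 1, the marked run of Eif3f was 15 bases long and crossed the start (-4 to 11). That of Eif3b was 5 bases long and lay after it (3 to 7). The runs of Eif2b1 (5 bases, -6 to -2) and Eif3c (3 bases, -7 to -5) lay wholly before it. Of the 37 members with an entry, 5 had a run of at least 8 pyrimidines touching the 5 bases either side of the start. They were Eif2b5, Eif3f, Eif3l, Eif4e and Eif4enif1, and 9.38% of all 32851 entries had such a run. A run so counted need not begin at the cap. This search was added after the values were seen. Here and for the motifs below, a member counted if any of its entries held the feature, whereas the share was over single entries. A member with several entries had more chances, so these figures are not like for like. Of those 5 genes 1 was higher in both KO-labelled libraries (Eif3f), 1 was lower in both (Eif3l), beside 27.4% and 26.7% of all genes, and Eif2b5, Eif4e and Eif4enif1 overlapped. The windows from 250 bases before to 50 bases after the start were also searched on both strands for the C/EBP-ATF response element TGATGNAA, found in 0 of the 37 members and in 3.97% of all entries. The interferon-stimulated response element was found in 1 of the 37 members, Eif3a, and in 3.44% of all entries, and no member held more than 1 of these motifs and runs. The 10 members with no entry were Eif1a, Eif2b3, Eif2c2, Eif3e, Eif3h, Eif3i, Eif4ebp1, Eif4ebp3, Eif4g2 and Eif6. The searches therefore did not cover Eif4ebp1, the member with the largest difference.

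Set per length, the 13 eIF3 transcripts spanned a similar range of levels in both groups. In CPM per kb of annotated exons, Eif3h was the highest, with a mean level of 285 in the KO-labelled libraries and 203 in WT, and Eif3j the lowest, with 34.0 in the KO-labelled libraries and 22.8 in WT. The ratio of the highest to the lowest was 8.39 in the KO-labelled libraries and 8.90 in WT. Eif3j had the longest annotated exons of the 13 genes, 5830 bases. In plain CPM its KO-labelled mean, 198, was above those of Eif3d (152.5) and Eif3g (129.5). Its WT mean, 132.7 CPM, was below theirs (154.9 and 139.3). Reads shared with a paralog may also lower its count, and their handling is not given in the sources used here. The parts of length and of shared reads in its low place were not tested. Eif3c was the third in the order of KO-labelled means, with levels of 266 and 170 CPM per kb, and the eighth in the order of WT means, with 113 and 128 CPM per kb. Many neighbours in this order did not differ beyond the spread of 2 libraries, for example Eif3e at 146 and 178 CPM per kb and Eif3a at 142 and 158 CPM per kb in WT. With the length of the longest transcript in place of all exons, Eif3k took the highest WT place and Eif3j remained the lowest in both groups.

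**Figure D3:**
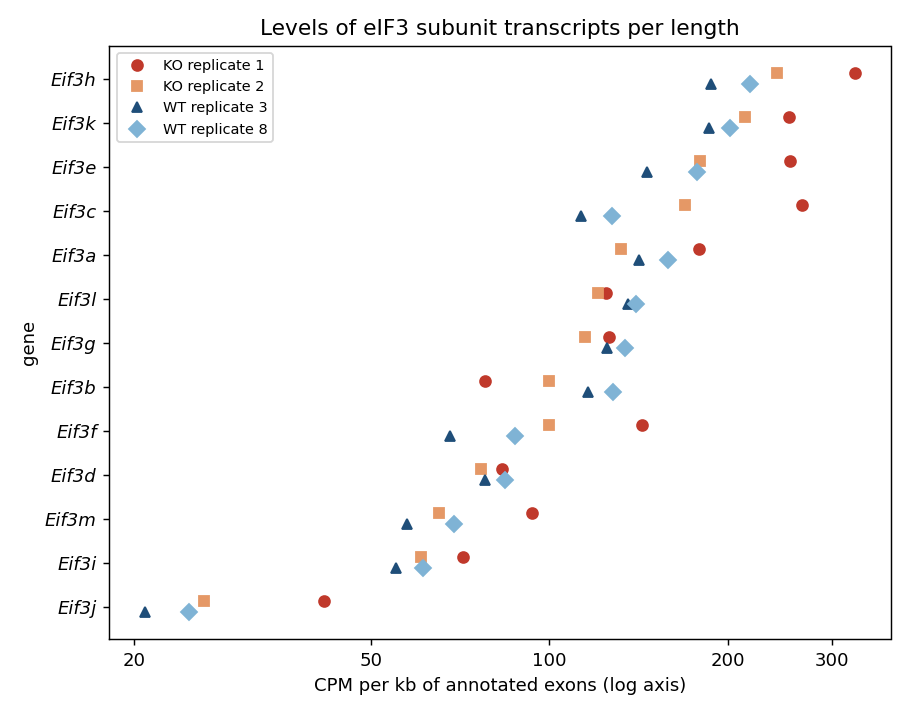
Level of each eIF3 transcript in CPM per kb of annotated exons (x axis, log scale) for the 13 genes (y axis, ordered by mean level), with the KO-labelled libraries drawn just above the WT libraries in each row. Eif3h is at the top and Eif3j at the bottom, and the 2 WT libraries of Eif3c lie left of both of its KO-labelled libraries.

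Among the mRNA-binding factors, the helicase genes Eif4a1 and Eif4a3 were lower in both KO-labelled libraries and Eif4a2 overlapped. Eif4a1, the main helicase of cap-dependent initiation (chromosome 11, 69480438 to 69485925, minus strand), had 660 and 788 CPM in the KO-labelled libraries, against 915 and 1071 CPM in WT (log2 fold change -0.46, SE 0.24, adjusted p = 0.440). Eif4a3, which belongs to the exon junction complex, had 78.2 and 106 CPM in the KO-labelled libraries against 114 and 121 CPM in WT (-0.35, SE 0.22, adjusted p = 0.470, and -0.15 without KO-labelled replicate 1). Eif4a2, a close paralog of Eif4a1, had 339 and 256 CPM in the KO-labelled libraries against 247 and 320 CPM in WT (0.068, SE 0.25, adjusted p = 0.896). The count ratio of Eif4a1 to Eif4a2 was 1.95 and 3.08 in KO-labelled replicates 1 and 2, against 3.70 and 3.35 in WT replicates 3 and 8, for a pair chosen after the values were seen. Eif4a1 and Eif4a2 host small nucleolar RNAs, and Eif4a2 shares exon sequence with Rfc4 on the opposite strand.

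The helicase partners stood near WT. Eif4b had 372 and 389 CPM in the KO-labelled libraries and 349 and 406 CPM in WT (0.011, SE 0.21, adjusted p = 0.980). Eif4h had 334 and 339 CPM in the KO-labelled libraries and 342 and 366 CPM in WT (-0.073, SE 0.19, adjusted p = 0.856), with no overlap but a gap smaller than the spread of the WT libraries.

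Of the scaffolds, Eif4g2 (also called DAP5), which lacks the eIF4E-binding site and serves cap-independent initiation, had the largest difference. It had 934 and 1005 CPM in the KO-labelled libraries against 1270 and 1291 CPM in WT, with no overlap (-0.40, SE 0.23, adjusted p = 0.456). Eif4g1, the main scaffold, had 592 and 640 CPM in the KO-labelled libraries against 629 and 763 CPM in WT (-0.18, SE 0.23, adjusted p = 0.694). Eif4g3 had 75.5 and 61.1 CPM in the KO-labelled libraries against 57.5 and 67.5 CPM in WT (0.13, SE 0.20, adjusted p = 0.752). Both of these overlapped between the groups.

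Eif4e, the cap-binding protein, had 186 and 146 CPM in the KO-labelled libraries and 160 and 188 CPM in WT (log2 fold change -0.072, SE 0.21, adjusted p = 0.871). Eif4e2, a cap-binding homologue that does not bind eIF4G well and represses the mRNAs it holds, had 48.7 and 67.3 CPM in the KO-labelled libraries against 70.0 and 73.7 CPM in WT (-0.31, SE 0.22, adjusted p = 0.507). Eif4e overlapped between the groups, and Eif4e2 was lower in both KO-labelled libraries, replicate 2 by a small margin, with a log2 fold change of -0.094 without replicate 1.

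The binding proteins of eIF4E differed from each other. Eif4ebp1, which encodes 4E-BP1 and is a known target of the stress transcription factor ATF4 (chromosome 8, 28370799 to 28386128, plus strand), had 119 and 69.8 CPM in KO-labelled replicates 1 and 2, against 21.9 and 31.6 CPM in WT replicates 3 and 8. Both KO-labelled libraries were more than the whole WT range above WT, and the means were 94.4 ± 34.7 CPM in KO-labelled and 26.7 ± 6.90 CPM in WT (SD, n = 2 each). The log2 fold change was 1.82 (SE 0.33, unadjusted p = 0.00161), and the adjusted p was 0.188, above the threshold. Across the alternatives the adjusted p ran from 4.29e-05 in DESeq2 to 0.240 in limma-voom. Without KO-labelled replicate 1 the log2 fold change was 1.38 (adjusted p = 0.0338) and without KO-labelled replicate 2 it was 2.14 (adjusted p = 0.000739), each with the lone library assumed to vary like the WT libraries. Without WT replicate 3 it was 1.58 (adjusted p = 0.200), and without WT replicate 8 it was 2.1 (adjusted p = 0.115). The direction was thus the same in all of these fits, and the side of the threshold was not.

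Eif4ebp2, the paralog with the same role, had 103 and 118 CPM in the KO-labelled libraries and 107 and 105 CPM in WT (0.0585, SE 0.18, adjusted p = 0.878). Eif4ebp3 on chromosome 18 had 10.2 and 8.63 CPM in the KO-labelled libraries and 10.1 and 10.4 CPM in WT (-0.12, SE 0.24, adjusted p = 0.799). Its exons overlap those of Ankhd1 on the same strand, so its reads may be shared with that gene. Eif4enif1 encodes the 4E-T protein, which brings eIF4E into the nucleus and into processing bodies. It had 165 and 171 CPM in the KO-labelled libraries and 180 and 161 CPM in WT (-0.0255, SE 0.18, adjusted p = 0.950). All 3 of these genes overlapped between the groups.

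The ratio of Eif4ebp1 to Eif4ebp2 counts was 1.16 and 0.593 in KO-labelled replicates 1 and 2, against 0.205 and 0.302 in WT replicates 3 and 8. That of Eif4ebp1 to Eif4e counts was 0.641 and 0.477 in the KO-labelled libraries, against 0.136 and 0.168 in WT. Both restate the difference in Eif4ebp1, which was chosen after its values were seen. They are ratios of transcripts, and the phosphorylation that governs 4E-BP1 is not measured by RNA sequencing.

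**Figure D4:**
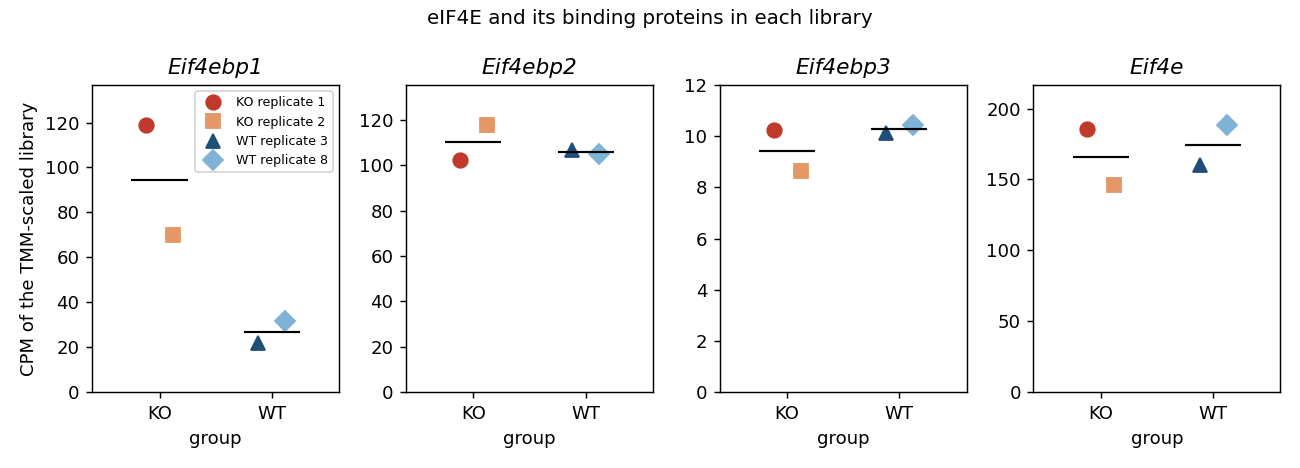
CPM of the TMM-scaled library (y axis, each panel from 0 on its own scale) for Eif4ebp1, Eif4ebp2, Eif4ebp3 and Eif4e in the KO-labelled and the WT libraries (x axis), with 1 point per library and a line at the group mean. The KO-labelled libraries of Eif4ebp1 lie at 119 and 69.8, above WT at 21.9 and 31.6, and the groups overlap in the other panels.

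Outside the initiation complexes proper, Eif5a, the hypusinated factor that helps ribosomes through difficult sequences, had 878 and 1016 CPM in the KO-labelled libraries against 1143 and 1198 CPM in WT, with no overlap (-0.31, SE 0.23, adjusted p = 0.526). Its paralog Eif5a2 had 55.1 and 68.0 CPM in the KO-labelled libraries and 69.1 and 53.3 CPM in WT (0.0081, SE 0.22, adjusted p = 0.987). Eif6, which keeps large ribosomal subunits apart from small ones, had 55.8 and 61.6 CPM in the KO-labelled libraries and 60.7 and 72.3 CPM in WT (-0.18, SE 0.19, adjusted p = 0.636). Eif5a2 and Eif6 overlapped between the groups. The argonaute genes overlapped too. Eif2c2, now called Ago2, the argonaute that cuts its targets and is needed for erythroid microRNA maturation, had 413 and 357 CPM in the KO-labelled libraries against 510 and 364 CPM in WT (-0.18, SE 0.25, adjusted p = 0.707). Eif2c1 had 25.6 and 31.1 CPM in the KO-labelled libraries and 30.9 and 34.4 CPM in WT (-0.20, SE 0.21, adjusted p = 0.632). Eif2c3 had 12.6 and 9.02 CPM in the KO-labelled libraries and 10.01 and 13.1 CPM in WT (-0.098, SE 0.29, adjusted p = 0.869).

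Genes that act beside the initiation factors were read from 3 lists, and 0 genes of each passed the edgeR quasi-likelihood test over all genes. At an unadjusted p under 0.05 there were 2 regulators of initiation, 2 mTORC1 genes and 0 elongation and termination factors, beside 11.9% of all genes. DESeq2 called 1 regulator of initiation, 1 mTORC1 gene and 0 elongation and termination factors, beside 3.49% of all genes. Without KO-labelled replicate 2, where 32.6% of all genes passed, 7 regulators of initiation, 4 mTORC1 genes and 3 elongation and termination factors did. Counts of genes whose groups did not overlap are to be read against 27.4% of all genes higher and 26.7% lower in both KO-labelled libraries. Of 18 regulators of initiation outside the Eif names, 5 were higher in both KO-labelled libraries, close to the share over all genes, and 8 were lower in both, with a median log2 fold change of -0.074. Pdcd4, an inhibitor of eIF4A, had 55.5 and 20.1 CPM in KO-labelled replicates 1 and 2, against 14.3 and 12.2 CPM in WT (1.51, SE 0.48, unadjusted p = 0.0202, adjusted p = 0.380). Paip2, an inhibitor of the poly(A)-binding protein, had 283 and 182 CPM in the KO-labelled libraries against 149 and 143 CPM in WT (0.67, SE 0.26, unadjusted p = 0.0422, adjusted p = 0.419). Both were higher in both KO-labelled libraries, with replicate 1 farther from WT. Without KO-labelled replicate 1 their log2 fold changes were 0.60 and 0.31.

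Of 12 genes of mTORC1 signalling, the pathway that controls 4E-BP1, 3 were higher in both KO-labelled libraries, close to the share over all genes, and 6 were lower in both, with a median of -0.11. Ddit4 (REDD1), a stress-induced inhibitor of mTORC1, had 61.1 and 8.29 CPM in KO-labelled replicates 1 and 2, against 0.399 and 0.972 CPM in WT, and it was in the table only through the KO-labelled libraries, since the table takes genes that exceed 1 CPM in at least 2 libraries. A gene that enters in this way had to differ, so its log2 fold change, 5.59 with all libraries and 3.53 without KO-labelled replicate 1, is a description and its inclusion in the counts above is no support. Tsc1, a subunit of another inhibitor of mTORC1, had 136 and 96.2 CPM in the KO-labelled libraries against 82.7 and 65.9 CPM in WT (0.64, SE 0.25, unadjusted p = 0.0403, adjusted p = 0.419), and its log2 fold change was 0.37 without KO-labelled replicate 1. The lowest value in the list was that of Akt1, at -0.73.

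Of 10 elongation and termination factors, 3 were higher in both KO-labelled libraries, close to the share over all genes, and 4 were lower in both. Their median was -0.087, and it ran from -0.18 without WT replicate 3 to 0.019 without WT replicate 8. The higher genes were the elongation factors Eef1a1, Eef1b2 and Eef2, and the lower were Eef1d, the release factors Etf1 and Gspt1, and the ribosome recycling factor Abce1. Eef1b2 had 1059 and 828 CPM in the KO-labelled libraries against 555 and 689 CPM in WT (0.60, SE 0.26, adjusted p = 0.433). Abce1 had 189 and 231 CPM in the KO-labelled libraries against 272 and 326 CPM in WT (-0.51, SE 0.22, adjusted p = 0.433).

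**Figure D5:**
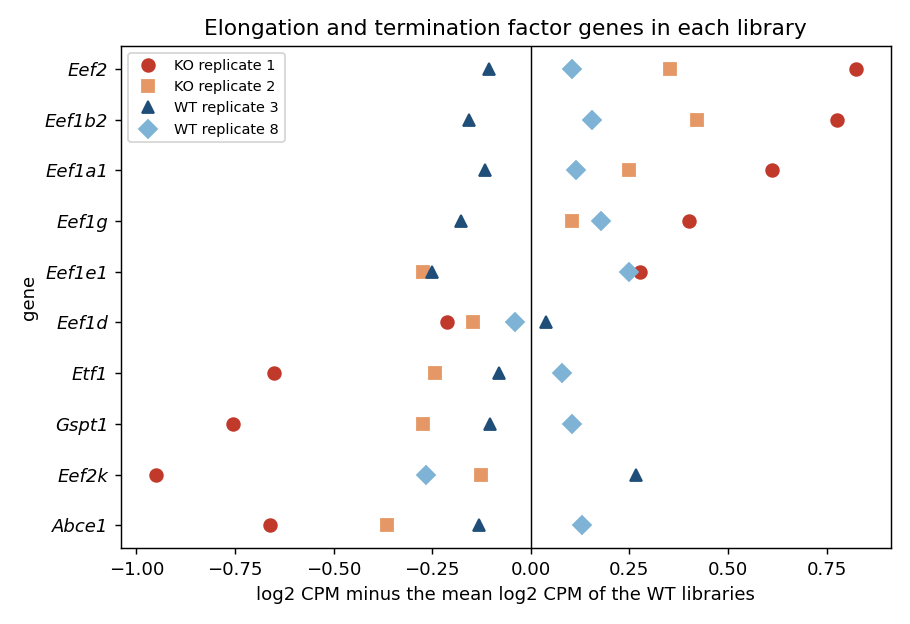
The 10 elongation and termination genes (y axis) in each library, as log2 CPM minus the mean log2 CPM of the WT libraries (x axis), with red circles and orange squares for KO-labelled replicates 1 and 2 and dark triangles and light diamonds for WT replicates 3 and 8. Eef2, Eef1b2 and Eef1a1 lie to the right of both WT libraries and Etf1, Gspt1 and Abce1 to the left in both KO-labelled libraries, with replicate 1 farther out.

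KO-labelled replicate 1 departed more from WT than replicate 2 did, among the initiation factors and in the table as a whole. It was the farther of the KO-labelled pair from the WT mean in 35 of the 47 members (74.5%) and in 8864 of all 10716 genes (82.7%). The median distance of the members from the WT mean was 0.30 on the log2 scale in replicate 1 and 0.17 in replicate 2, beside 0.16 between the WT libraries. Over all genes the same medians were 0.50 in replicate 1, 0.18 in replicate 2 and 0.19 between the WT libraries. The WT value is the full difference between the WT libraries and not a distance from their mean. Each WT library lies closer to the WT mean than this value, so the measures are unlike. Leaving out KO-labelled replicate 2 gave 11 members past the threshold and 3492 genes in all (32.6%). The 5 higher were Eif1, Eif3c, Eif3f, Eif3j and Eif4ebp1 (17.3% of all genes were called higher), and the 6 lower were Eif1a, Eif1ad, Eif1ay, Eif2b1, Eif4a3 and Eif4e2 (15.3% of all genes were called lower). Leaving out KO-labelled replicate 1 gave 1 member, Eif4ebp1, and 143 genes in all (1.33%). Leaving out WT replicate 3 gave a median log2 fold change of -0.106 over the members, beside 0.0063 over all genes. Leaving out WT replicate 8 gave 0.0233 over the members, beside 0.0099 over all genes. With no scaling of library sizes 1 member, Eif4ebp1, passed, with 87 genes in all (0.812%). Across the 47 members the log2 fold change had a Spearman rho of -0.093 with transcript length and 0.19 with mean CPM, against 0.029 and -0.050 over 10069 genes with a length. These are correlations across genes measured in the same 4 libraries, and genes are not independent replicates.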

How the data were processed

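Libraries of sorted erythroid cells were grouped by their titles. The authors deposited raw counts per gene, whole numbers that were used here without change, for 10716 genes. The table lists a gene only where at least 2 libraries exceeded 1 CPM, and genes at lower levels are not analysed here. The submitters' processing notes name mm9 and NCBIM37 as builds, and as tools, with no role given, TopHat2 2.0.8, Trimmomatic 0.30, HTSeq, Bowtie2 2.1.0.0, edgeR, limma, SAMtools 0.1.19, Cufflinks, GATK and BWA 0.6.2. Strandedness and the handling of reads shared between paralogs are not given in the sources used here. The labels do not say whether the libraries of a group came from separate embryos, so p-values measure the spread between these libraries, which may be partly technical.

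The 47 genes, the related lists and the tests were chosen with earlier results of these data known. R 4.3.3 and edgeR 4.0.16 were used for a single fit of all 4 libraries: filterByExpr, TMM scaling, glmQLFit with robust=TRUE and legacy=TRUE, and a two-sided quasi-likelihood F test. The p-values of the 10716 genes were adjusted together by Benjamini-Hochberg, and the threshold was an adjusted p of 0.05. The SE of a log2 fold change is its absolute value over the square root of F. CPM are of the TMM-scaled library. Levels per kb used exon lengths of the GENCODE vM1 annotation on NCBIM37, where all 47 members were found, 42 of them by an Ensembl ID in the table, and promoters came from RefSeq on GRCm38.p6. Full values are given for each member of eIF2, eIF2B and the eIF4E-binding proteins, for the 3 members with the smallest p in each other complex, and for the 2 genes with the smallest p in each related list. The fit was also run on simulated counts, in which all libraries had the same spread for a given gene. The departure of KO-labelled replicate 1 from WT was not part of that simulation, and nothing is concluded from it here. Alternatives were RLE scaling, no scaling, no filter, a stricter filter, legacy=FALSE, robust=FALSE, the likelihood ratio test, DESeq2 1.42.0, limma-voom (limma 3.58.1) and leaving out each library. Tables and figures were made with Python 3.11.15.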

Additional observations from a re-analysis of the deposited data

How the results depend on the processing

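No paired analysis was possible because the groups share no replicate number. The 11 genes called became 87 with no library scaling, 349 in the likelihood ratio test and 374 in DESeq2, and ran from 27 to 3492 when 1 library was left out. The 0 members called became 1 (Eif4ebp1) with no library scaling, in the likelihood ratio test and in DESeq2, and ran from 0 to 11 when 1 library was left out. A library left alone in its group was assumed to vary like the others, and the cause of these differences was not tested. The median log2 fold change of the members was -0.14 with no library scaling, which moved the median of all genes to -0.069, and ran from -0.11 to 0.023 when 1 library was left out.

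Of 429 values of the 33 members given in full under the alternatives, 389 kept direction and side of the threshold, 14 passed it, and 26 changed sign. The sign changes fell in 12 members, whose log2 fold changes in the reported fit were at most 0.184 in size. The filter removed no gene, so the fit with no filter repeats the reported one and its values could not differ. Those with legacy=FALSE, robust=FALSE and the likelihood ratio test gave nearly the same log2 fold changes, so a change of sign was hardly possible in them. With no scaling the log2 fold change was -0.028 for Eif2b4, -0.014 for Eif4a2, -0.059 for Eif4b, -0.0035 for Eif4ebp2 and -0.0435 for Eif5a2. Eif5a2 was at -0.0011 with RLE scaling and -0.001 in DESeq2. When 1 library was left out, values on both sides of 0 were seen for Eif2b3 (-0.24 to 0.16), Eif2b4 (-0.14 to 0.20), Eif2b5 (-0.26 to 0.088), Eif2c2 (-0.42 to 0.079), Eif2c3 (-0.36 to 0.11) and Eif4a2 (-0.15 to 0.26). The same held for Eif4b (-0.094 to 0.12), Eif4e (-0.25 to 0.080), Eif4ebp2 (-0.056 to 0.16), Eif4enif1 (-0.11 to 0.0555), Eif4g3 (-0.032 to 0.26) and Eif5a2 (-0.18 to 0.21). Counts of these genes were high enough that the number of libraries, not the depth, limited the precision.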
